A study of Mus musculus with 6 samples.

Results

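The genes described here are 40 genes of G2 phase, mitosis and the mitotic spindle, taken by name from a table of read counts for 27179 genes after Entrez identifiers had been matched to mouse symbols. All 40 were found, and all 40 passed the filter on low counts. RNA sequencing was done on a mouse leukaemia line on the C57BL/6 background, labelled A/E9a;NRASG12D;Ifnar1-/-. It carries A/E9a, a form of the AML1-ETO fusion oncogene, with an activated NRAS, and by its label it has no functional gene for Ifnar1, a chain of the receptor for type I interferons. There are 3 libraries of cells from panobinostat treatment and 3 from vehicle treatment. GFP+ leukaemia cells were sorted from spleen after 3 days of treatment, with propidium iodide marking dead cells. All 6 libraries share the fusion, the NRAS allele and the Ifnar1 knockout, so effects that need this receptor in the leukaemia cells cannot be seen against a receptor-positive group here. The labels name 1 leukaemia line and give no dose, and nothing in them says that libraries came from separate mice, so the spread behind each p-value is that of these libraries and may be partly technical.

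A cell enters mitosis when cyclin B bound to the kinase CDK1 becomes active, a step opened by CDC25 phosphatases and by the Polo-like and Aurora kinases. Kinesin motors then build the spindle, centromere and kinetochore proteins tie chromosomes to it, and the spindle checkpoint holds back the anaphase-promoting complex (APC/C), a ubiquitin ligase, until every chromosome is attached. Many of these genes are transcribed late in the cycle under the factors B-MYB and FOXM1 and the MuvB complex, which is also the core of the repressive DREAM complex, and p53 through its target p21 (Cdkn1a) is known to lower them. Panobinostat blocks histone deacetylases, which strip acetyl marks off histones, and drugs of this class slow the cycle in many cultured cells.

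Libraries held 31989622 to 35962605 counts, and the 40 genes had between 331 and 70703 counts in any library. A panobinostat and a vehicle library stood apart from the others of their group. On the first principal component of log2 CPM, with 50.8% of the variance, the panobinostat libraries lay between -25.3 and -15.0, vehicle library 1 at -53.7 and vehicle libraries 2 and 3 at 54.3 and 56.4. On the second, with 27.6%, panobinostat library 1 stood at 64.95 and the other 5 libraries between -26.7 and -0.94. Across the genes tested, vehicle library 1 had a Pearson r of 0.984 with panobinostat library 3 and 0.976 with panobinostat library 2, and of 0.942 and 0.941 with vehicle libraries 2 and 3, so it was nearer to those panobinostat libraries than to its own group. The number in a library's name is its column number, and no label says whether it pairs libraries. Ifnar1 was counted at 43.2, 35.7 and 46.4 CPM in panobinostat libraries and 48.0, 38.4 and 36.9 CPM in vehicle libraries. No label says how the gene was disrupted, so these counts neither bear out nor contradict the label. Markers of monocytes, macrophages and granulocytes were low in these cells labelled as leukaemia. Summed levels of mast cell and basophil markers and of erythroid markers, given below, were higher. Mpo and Elane, enzymes of granulocyte precursors, did not exceed 0.422 and 0.309 CPM in any library, where a count of 0 allows up to 0.0834 to 0.0947 CPM. Ly6g and Itgam did not exceed 0.0574 and 0.663 CPM. Levels were higher for Lyz2 at 1.55 to 3.61 CPM, Csf1r at 1.43 to 3.70 CPM and Adgre1 at 0.556 to 1.295 CPM.

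None of the 40 genes passed the test for a change with panobinostat. Over all 6 libraries edgeR's quasi-likelihood test with Benjamini-Hochberg adjustment called 0 of 40 genes and 0 of 13207 genes tested (0%), with a smallest adjusted p among the 40 of 0.998. No gene of the 40 had an unadjusted p under 0.05, against 2.28% of all genes tested (301 genes). DESeq2 called 0 of 40 and 0.0681% of all genes (9 genes), and limma-voom 0 of 40 and 0 of all. Of the estimates 39 of 40 were below 0, where 49.8% of all genes tested were, and their median log2 fold change was -0.14, against 0.0009 over all genes tested. They ran from -0.35 for Nusap1 to 0.013 for Aurkb, with SE from 0.135 to 0.310. Most of the 40 genes moved together across libraries, with a median pairwise Pearson r of 0.888. Their estimates are therefore not 40 separate observations. Every 95% interval held 0, and the lowest lower bound was -0.9965, for Cdc20. The 3 panobinostat libraries lay wholly above or below the vehicle libraries for 0 of the 40, against 7.43% of all genes tested. In bulk RNA a smaller share of dividing cells and less transcript per dividing cell cannot be told apart. The direction of the estimates held under RLE and upper-quartile scaling and turned for Aurkb alone, to -0.0063, when libraries were scaled by size only.

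The order of the libraries was nearly the same from gene to gene. Vehicle library 1 was the lowest of the 6 libraries for 37 of 40 genes, against 25.4% of all genes tested. For 34 of 40 genes vehicle library 1 lay below all 3 panobinostat libraries and these lay below both vehicle libraries 2 and 3, an order found in 9.8% of all genes tested. Among the 6452 tested genes with a mean log2 CPM of at least 5, 14% had that order. The 6 genes without it were Cdk1, Cdc25b, Pttg1, Cenpf, Mki67 and Mybl2. The order was looked for after the values had been seen. The summed level of the 40 genes was 6323, 7563 and 7224 CPM in panobinostat libraries 1, 2 and 3 and 5909, 8457 and 8450.0 CPM in vehicle libraries 1, 2 and 3. After log2 CPM had been centred gene by gene, the median of the 40 stood at -0.09, -0.023 and -0.041 in panobinostat libraries and -0.43, 0.33 and 0.26 in vehicle libraries, in the order 1, 2, 3 that is kept below.

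**Figure D1:**
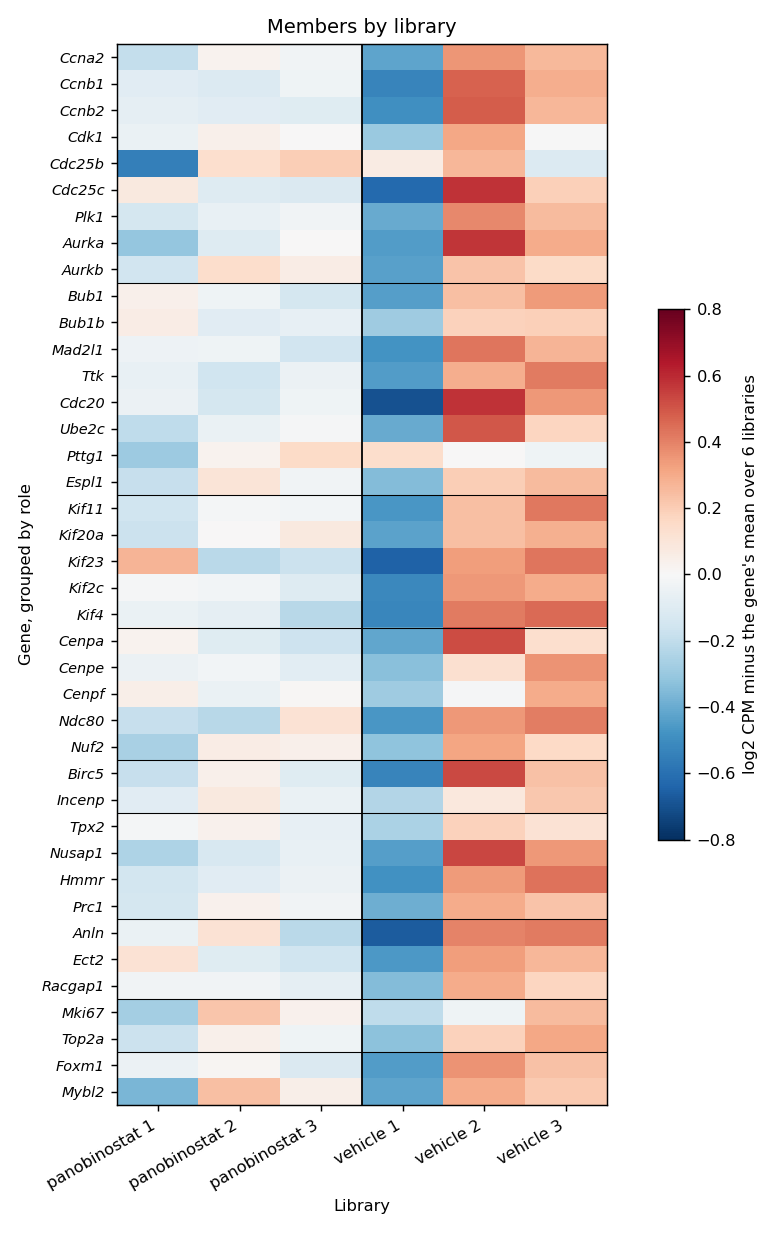
Level of each of the 40 genes (rows, grouped by role and parted by thin lines) in the 3 panobinostat and 3 vehicle libraries (columns), as log2 CPM minus the gene's mean over the 6 libraries. The panobinostat columns are pale for most genes, vehicle library 1 is blue for all but Cdc25b and Pttg1, and vehicle libraries 2 and 3 are red for most.

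Spread differed between the groups along with this order. The median coefficient of variation of the 40 genes was 6.43% over panobinostat and 27.1% over vehicle libraries, and over all genes tested 11.8% and 16.6% in the same order. Over the 6452 tested genes with a mean log2 CPM of at least 5, which hold 38 of the 40, it was 7.99% and 12.8%. Of the 40 genes, 37 had the smaller SD in panobinostat libraries, as did 63.7% of all genes tested and 68.1% of those 6452 genes. The ratio of the highest to the lowest library had a median of 1.137 within panobinostat and 1.727 within vehicle libraries. Whether the 3 panobinostat libraries share a source that the vehicle libraries do not was not tested.

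Leaving out vehicle library 1 changed the calls. Without it edgeR's test called 2 of 40 genes lower, Kif4 at a log2 fold change of -0.56 (SE 0.0903, adjusted p 0.0451) and Nusap1 at -0.60 (SE 0.102, adjusted p 0.0499), where 0.419% of all genes were called lower and 2.42% in either direction. In that fit 40 of 40 estimates were below 0, against 51.3% of all genes, with a median of -0.37, and 29 of 40 genes had an unadjusted p under 0.05, as had 2716 of 13369 genes tested. Without both libraries numbered 1, 14 of 40 genes were called lower and 0 higher, where 4.65% of all genes were called lower and 12% in either direction. These were Ccnb1, Ccnb2, Plk1, Aurka, Bub1, Mad2l1, Ttk, Cdc20, Kif23, Kif2c, Kif4, Nusap1, Hmmr and Ect2, with log2 fold changes from -0.59 for Kif4 to -0.37 for Plk1. The omitted libraries are those that stood apart in these same counts. Vehicle library 1 was the lowest library for 37 of 40 genes, so omitting it lowers most estimates. The calls describe how the result depends on the libraries and are not a separate test. Leaving out vehicle library 2 or 3 instead left 24 or 27 of 40 estimates below 0, against 49.1% or 50.8% of all genes, and medians of -0.014 and -0.056, with 0 genes called. Without panobinostat library 1 alone 35 of 40 estimates were below 0, against 51.4% of all genes, the median was -0.15 and 0 genes were called.

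**Figure D2:**
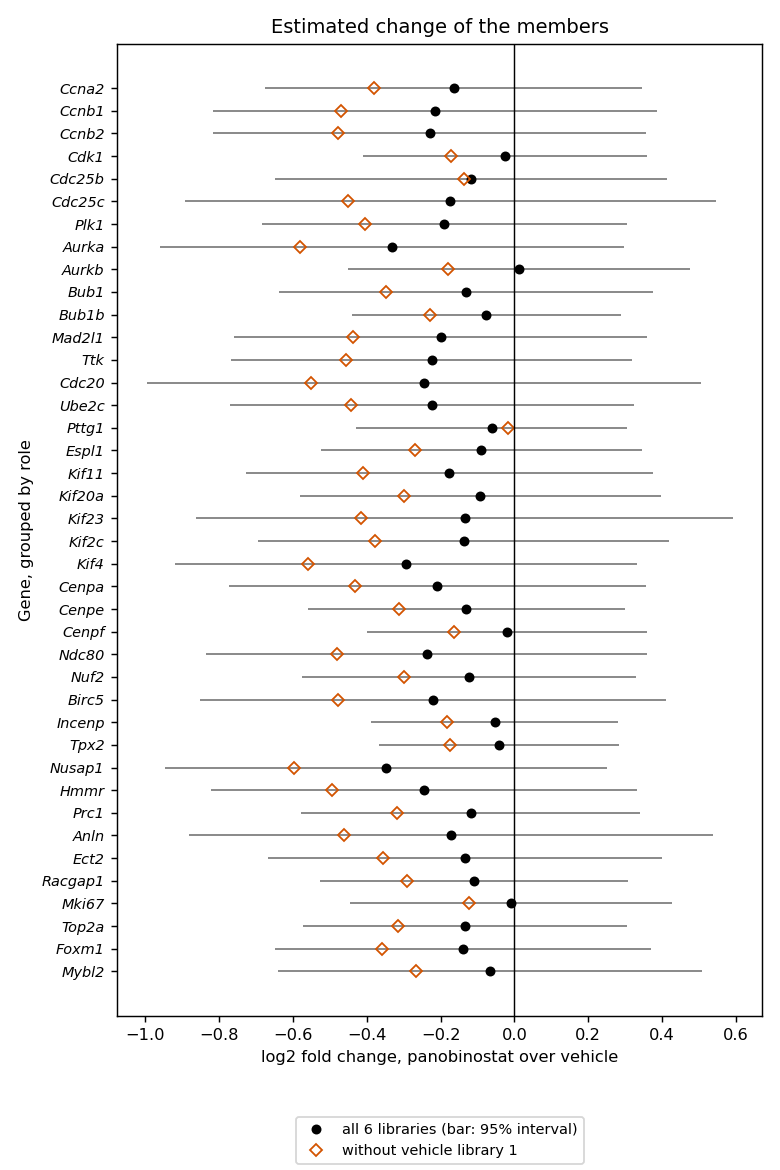
Log2 fold change of panobinostat over vehicle for each of the 40 genes from edgeR's fit on all 6 libraries (filled circles, bars showing 95% intervals) and without vehicle library 1 (open diamonds). All bars cross 0, and the diamonds lie left of the circles for 39 of 40 genes, the exception being Pttg1.

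Promoters were read because most of the 40 genes moved together between libraries. RefSeq promoter windows of GRCm38.p6, from 250 bases before to 50 bases after the annotated start, matched 33 of the 40 genes. The cell cycle homology region, the CHR, is the element through which MuvB complexes bind late cell cycle promoters, and it was searched as TTTGAA and its reverse complement TTCAAA. The CCAAT box, bound by the factor NF-Y, was searched as CCAAT and ATTGG. A CHR match stood in the windows of 23 of 33 genes (69.7%), against 20.2% of 27025 genes in the promoter table. It began within 50 bases of the start in 21 of 33 (63.6%) and in 5.72% of all genes, a narrower window chosen after the matches had been seen. A CCAAT match was found in 24 of 33 (72.7%) and 41.1% of all, and both motifs in 20 of 33 (60.6%) and 7.97% of all. Only 1 pair of matches in the windows of the 40 genes shared bases. A match is a run of letters and does not show that a factor binds there.

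The windows below, 150 bases before to 30 bases after the start on the gene's strand, show 4 genes that follow the common order and hold both motifs, 1 that follows it with neither, and 1 that departs from it. Capitals mark CHR and CCAAT matches that lie wholly inside the printed stretch. Ccnb2 (chr9:70421525-70421704, minus strand) encodes cyclin B2, Cdc20 (chr4:118437314-118437493, minus strand) an activator of the APC/C, Hmmr (chr11:40733408-40733587, minus strand) a spindle pole protein and Kif4 (chrX:100625915-100626094, plus strand) a chromosome kinesin. Nusap1 (chr2:119618148-119618327, plus strand) encodes a spindle microtubule binder and Pttg1 (chr11:43425952-43426131, minus strand) securin, the inhibitor of separase.
Ccnb2: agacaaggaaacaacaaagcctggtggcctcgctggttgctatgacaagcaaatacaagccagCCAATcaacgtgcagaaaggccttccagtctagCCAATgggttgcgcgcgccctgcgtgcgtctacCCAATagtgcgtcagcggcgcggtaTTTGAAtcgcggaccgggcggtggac
Cdc20: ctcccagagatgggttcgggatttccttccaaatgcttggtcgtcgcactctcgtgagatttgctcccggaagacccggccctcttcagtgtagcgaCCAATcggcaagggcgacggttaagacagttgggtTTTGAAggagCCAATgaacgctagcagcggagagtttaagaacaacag
Hmmr: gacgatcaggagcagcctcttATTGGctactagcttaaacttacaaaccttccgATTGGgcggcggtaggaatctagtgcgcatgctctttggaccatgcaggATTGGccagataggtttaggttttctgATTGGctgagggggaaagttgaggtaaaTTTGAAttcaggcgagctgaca
Kif4: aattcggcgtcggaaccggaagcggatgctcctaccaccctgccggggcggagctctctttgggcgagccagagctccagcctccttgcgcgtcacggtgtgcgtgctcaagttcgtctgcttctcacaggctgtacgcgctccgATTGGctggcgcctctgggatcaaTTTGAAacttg
Nusap1: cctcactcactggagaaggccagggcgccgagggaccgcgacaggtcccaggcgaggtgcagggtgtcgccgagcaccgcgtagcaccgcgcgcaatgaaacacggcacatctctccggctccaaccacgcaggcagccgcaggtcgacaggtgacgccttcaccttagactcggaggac
Pttg1: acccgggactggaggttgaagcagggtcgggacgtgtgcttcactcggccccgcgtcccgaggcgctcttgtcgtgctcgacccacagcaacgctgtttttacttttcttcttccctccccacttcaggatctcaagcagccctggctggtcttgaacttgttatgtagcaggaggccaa
Positions count the start base as 1 and the base before it as -1, with no position 0. CHR letters of Ccnb2 began at position 5, behind CCAAT matches at -87, -54 and -21, and again at -167, outside the printed stretch. In Cdc20 they began at -18 between CCAAT matches at -53 and -8, and in Kif4 at position 20 behind CCAAT matches at -5 and, not wholly in print, at -152. Hmmr had its CHR letters at position 9 and a CCAAT match at -172 besides the 4 printed. Nusap1 had neither motif in its window and the lowest estimate of the 40, -0.35, while Pttg1 had neither and did not follow the common order. Genes not printed differ from these examples. Cdk1, Cenpf and Mki67 held both motifs and departed from the order, as did Cdc25b with CCAAT alone and Mybl2 with neither. Nuf2, Mad2l1 and Birc5 followed the order with neither motif.

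**Figure D3:**
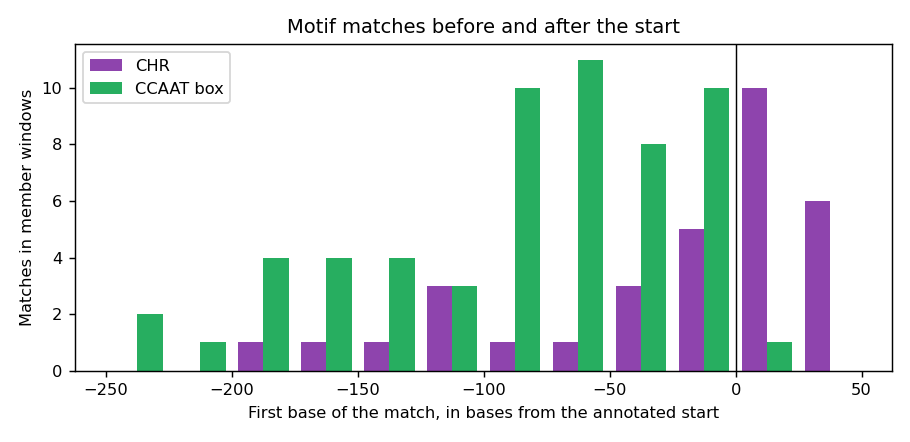
Number of CHR and CCAAT matches (bars, by bins of 25 bases) by the position of their first base from the annotated start, over the 35 promoter windows of 33 of the 40 genes. CHR matches are most frequent just after the start, with 10 in the first bin after it, and CCAAT matches before it, with 10 or 11 in 3 of the 4 bins from -100 to -1.

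Of the 9 cyclin, CDK1, CDC25 and mitotic kinase genes, 0 passed the test, 8 had a lower and 1 a higher estimate, and the median log2 fold change was -0.17. Ccnb1, cyclin B1 (Entrez gene 268697, chromosome 13, 100778739 to 100786486, GRCm38), stood at 124, 123 and 129 CPM in panobinostat libraries and 91.8, 183 and 161 CPM in vehicle libraries. The panobinostat values were close to each other, between vehicle library 1 and the other two vehicle libraries, and the log2 fold change was -0.21 (SE 0.249). Ccnb2 read 105, 103 and 103 CPM in panobinostat libraries and 78.2, 154 and 132 CPM in vehicle libraries, with -0.23 (SE 0.242). Ccna2, cyclin A2, which acts from S phase to early mitosis, read 195, 227 and 218 CPM in panobinostat libraries and 166, 285 and 266 CPM in vehicle libraries, with -0.16 (SE 0.211). All 3 cyclins showed the same order of libraries. Cdk1, their kinase partner, varied less, at 88.6, 94.3 and 92.0 CPM in panobinostat libraries and 74.8, 114 and 91.4 CPM in vehicle libraries, with vehicle library 3 inside the panobinostat range and a log2 fold change of -0.026 (SE 0.160).

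Plk1, the Polo-like kinase of mitotic entry, stood at 82.6, 87.5 and 89.5 CPM in panobinostat libraries and 68.9, 119 and 108 CPM in vehicle libraries, a log2 fold change of -0.19 (SE 0.205). Aurka, the Aurora kinase of spindle poles, read 57.9, 66.7 and 72.0 CPM in panobinostat libraries and 52.6, 107 and 88.1 CPM in vehicle libraries, and -0.33 (SE 0.259). For both kinases vehicle library 1 was lowest and vehicle library 2 highest. Aurkb, the Aurora kinase of the chromosomal passenger complex, was the one gene of the 40 with an estimate above 0, 0.013 (SE 0.192), from 88.4, 108 and 102 CPM in panobinostat libraries and 72.6, 115 and 109 CPM in vehicle libraries. Panobinostat library 2 was just below vehicle library 3 for that gene. The CDC25 phosphatases, which activate CDK1, parted ways. Cdc25c, the least abundant of the 40 per length, read 17.0, 15.0 and 14.9 CPM in panobinostat libraries and 10.5, 24.01 and 18.4 CPM in vehicle libraries, in the common order by library. Cdc25b, the most abundant per length, read 605, 968 and 1011 CPM in panobinostat libraries and 925, 1062 and 818 CPM in vehicle libraries, with panobinostat library 1 lowest and vehicle library 2 highest.

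Genes of the checkpoint, the APC/C and separase, 8 in all, had 8 lower estimates and 0 calls, with a median of -0.17. Cdc20 stood at 109, 102 and 110.1 CPM in panobinostat libraries and 69.5, 168 and 143 CPM in vehicle libraries, the widest range of the 40 at 2.42-fold from vehicle library 1 to vehicle library 2. Its means were 107 ± 4.17 CPM in panobinostat and 127 ± 51.4 CPM in vehicle libraries (SD, n = 3 each) and its log2 fold change -0.25 (SE 0.310). Panobinostat libraries were close together and inside the vehicle range. Ube2c, the ubiquitin-conjugating enzyme of the APC/C, read 123, 136 and 141 CPM in panobinostat libraries and 107, 200.1 and 159.5 CPM in vehicle libraries, and Mad2l1, the checkpoint protein that binds CDC20, 82.3, 82.7 and 76.0 CPM in panobinostat libraries and 60.8, 114 and 102 CPM in vehicle libraries. Their log2 fold changes were -0.22 and -0.20 with SE of 0.226 and 0.231. Among the checkpoint kinases, Ttk, also called MPS1, read 31.9, 29.8 and 32.2 CPM in panobinostat libraries and 24.4, 40.7 and 44.4 CPM in vehicle libraries. Bub1 read 83.5, 79.0 and 73.5 CPM in panobinostat libraries and 59.7, 96.0 and 103 CPM in vehicle libraries, and Bub1b, the pseudokinase BUBR1, 164, 148 and 151 CPM in panobinostat libraries and 129, 179 and 180.1 CPM in vehicle libraries. In all of these vehicle library 1 was lowest and vehicle libraries 2 and 3 were highest.

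Separase and securin did not move alike. Espl1, separase, the protease that cuts cohesin at anaphase, read 122, 149 and 136 CPM in panobinostat libraries and 109, 159 and 166 CPM in vehicle libraries, in the common order. Pttg1 read 16.1, 20.1 and 21.9 CPM in panobinostat libraries and 21.8, 19.7 and 19.2 CPM in vehicle libraries, so that panobinostat library 1 was lowest, panobinostat library 3 highest and vehicle library 1 next to it. Its values across libraries had a Pearson r of -0.23 with the median pattern of the 40 genes, the lowest of all. Those 6 libraries differ in levels of cell type markers as well as in treatment. By the same measure Cdc25b had an r of 0.17, Mki67 0.56 and Cenpf 0.76, and the other 36 had at least 0.8, up to 0.99 for Prc1. The pattern is the median of the same genes, so these values describe likeness and test nothing.

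The 5 kinesin genes had 5 lower estimates, 0 calls and a median of -0.14. Kif11, the motor that pushes spindle poles apart, stood at 222, 246 and 244 CPM in panobinostat libraries and 179.5, 293 and 332 CPM in vehicle libraries, and Kif4 (Entrez gene 16571, chromosome X, 100626065 to 100727271, GRCm38) at 68.7, 68.0 and 61.2 CPM in panobinostat libraries and 49.8, 95.03 and 97.5 CPM in vehicle libraries. Kif4 had the lowest estimate of the kinesins, -0.29 (SE 0.259), with means of 66.0 ± 4.10 CPM in panobinostat and 80.8 ± 26.9 CPM in vehicle libraries (SD, n = 3 each). Both had vehicle library 1 lowest and vehicle library 3 highest. Kif2c, which takes microtubules apart at centromeres, read 58.2, 57.6 and 54.5 CPM in panobinostat libraries and 40.9, 74.5 and 71.9 CPM in vehicle libraries, and Kif20a, a kinesin of the central spindle, 65.5, 73.8 and 78.0 CPM in panobinostat libraries and 54.8, 87.1 and 89.8 CPM in vehicle libraries. Kif23, the kinesin of the centralspindlin complex, was uneven within panobinostat, at 102, 72.9 and 75.0 CPM in panobinostat libraries and 54.1, 107 and 114 CPM in vehicle libraries. Panobinostat library 1 stood above the other two there. Kif23 was called lower without both libraries numbered 1 (edgeR adjusted p 0.00929) and not without vehicle library 1 alone (edgeR adjusted p 0.241).

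For the 5 centromere and kinetochore genes, 5 estimates were lower, 0 were called and the median was -0.13. Cenpa, the histone variant that marks centromeres, read 95.1, 87.2 and 83.2 CPM in panobinostat libraries and 69.9, 134 and 103 CPM in vehicle libraries. Ndc80 and Nuf2 encode partners in the complex that grips microtubules. Ndc80 stood at 34.7, 33.8 and 42.9 CPM in panobinostat libraries and 28.6, 50.1 and 52.5 CPM in vehicle libraries, and Nuf2 at 60.7, 76.0 and 74.9 CPM in panobinostat libraries and 58.3, 90.7 and 81.4 CPM in vehicle libraries. Both kept vehicle libraries 2 and 3 on top. Cenpe, a kinetochore kinesin, read 112, 114 and 109 CPM in panobinostat libraries and 91.8, 126 and 149 CPM in vehicle libraries, and Cenpf, a large kinetochore protein, 92.7, 86.7 and 90.4 CPM in panobinostat libraries and 73.8, 89.2 and 111 CPM in vehicle libraries. Cenpf was nearly flat apart from vehicle libraries 1 and 3, with a log2 fold change of -0.02 (SE 0.157) that turned to 0.0017 without panobinostat library 2 and to 0.14 without vehicle library 3.

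**Figure D4:**
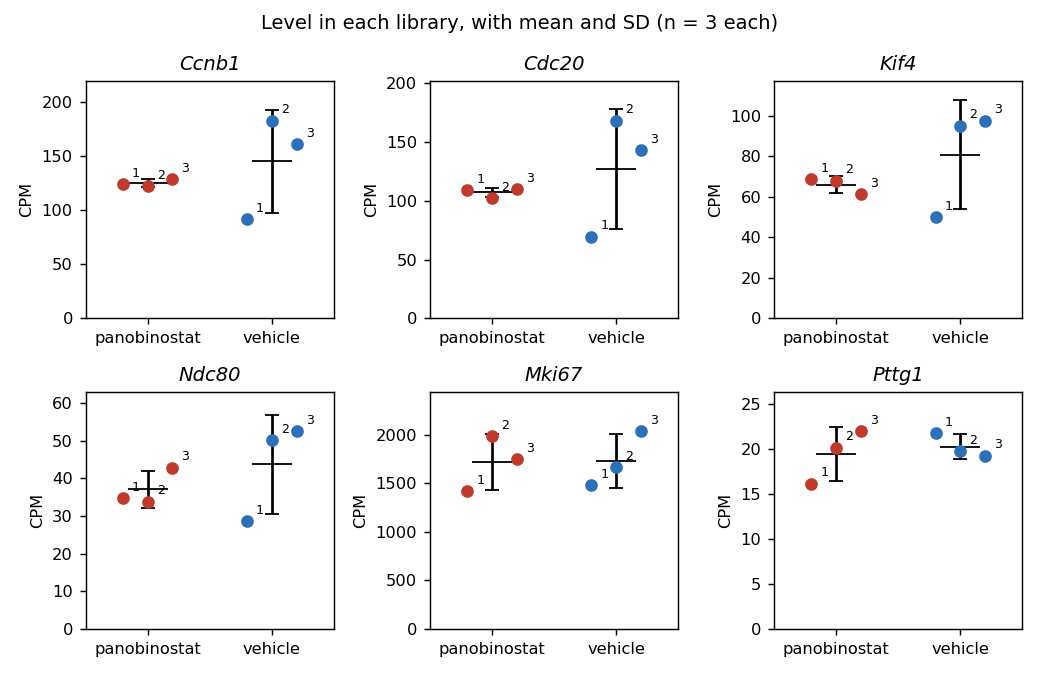
CPM of Ccnb1, Cdc20, Kif4, Ndc80, Mki67 and Pttg1 in each library (points, numbered by library), panobinostat left and vehicle right of each panel, with the mean and SD of each group (n = 3 each). In the first 4 panels the panobinostat points sit between vehicle library 1 and vehicle libraries 2 and 3, with means of 107 and 127 CPM for Cdc20, while Mki67 and Pttg1 show other orders.

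The other 13 genes belong to the passenger complex, the spindle, cytokinesis, chromosomes and transcription, with 13 lower estimates and 0 calls. In the passenger complex, Birc5, survivin, read 85.6, 99.95 and 91.1 CPM in panobinostat libraries and 67.6, 140.2 and 115 CPM in vehicle libraries, and Incenp, its scaffold, 195, 219 and 200.2 CPM in panobinostat libraries and 177, 219.8 and 241 CPM in vehicle libraries. Birc5 varied 2.08-fold over the libraries and Incenp 1.36-fold. Nusap1 read 106, 115 and 121 CPM in panobinostat libraries and 92.7, 182 and 160.5 CPM in vehicle libraries, with the lowest estimate of the 40, -0.35 (SE 0.247), and an unadjusted p of 0.207. Hmmr read 109, 114 and 117 CPM in panobinostat libraries and 86.4, 153 and 163 CPM in vehicle libraries. Tpx2, which activates Aurora A on the spindle, varied least of the 40, at 182, 188 and 176 CPM in panobinostat libraries and 154, 209 and 199 CPM in vehicle libraries, or 1.35-fold. Prc1, which bundles microtubules of the midzone, read 127, 143 and 137 CPM in panobinostat libraries and 106, 171 and 164 CPM in vehicle libraries. Of the cytokinesis genes, Anln, anillin, read 88.3, 99.3 and 78.8 CPM in panobinostat libraries and 57.6, 120.5 and 122 CPM in vehicle libraries, with vehicle library 1 well below the rest. Ect2, the exchange factor for RhoA, read 80.6, 69.6 and 66.5 CPM in panobinostat libraries and 54.3, 93.9 and 89.7 CPM in vehicle libraries, and Racgap1, the centralspindlin GTPase-activating protein, 141, 141 and 137 CPM in panobinostat libraries and 113, 177 and 162 CPM in vehicle libraries. Log2 fold changes of Anln, Ect2 and Racgap1 were -0.17 (SE 0.293), -0.13 (SE 0.220) and -0.11 (SE 0.173).

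Mki67, the proliferation antigen Ki-67, which coats mitotic chromosomes, was the most abundant of the 40 by CPM and departed from the common order. It stood at 1415, 1987 and 1744 CPM in panobinostat libraries and 1479, 1669 and 2034 CPM in vehicle libraries. Panobinostat library 1 was lowest and vehicle library 3 highest, with panobinostat library 2 close behind it, and the log2 fold change was -0.01 (SE 0.181). Top2a, the topoisomerase that untangles sister chromatids, read 608, 706 and 669 CPM in panobinostat libraries and 546, 779 and 850.4 CPM in vehicle libraries, a log2 fold change of -0.13 (SE 0.182). Both transcription factors were lowest in vehicle library 1. Foxm1 read 98.8, 103 and 93.9 CPM in panobinostat libraries and 74.8, 131 and 119.9 CPM in vehicle libraries, and Mybl2, which encodes B-MYB, 79.6, 121 and 106 CPM in panobinostat libraries and 76.6, 126 and 118 CPM in vehicle libraries, with panobinostat library 1 close to vehicle library 1. Their log2 fold changes were -0.14 (SE 0.211) and -0.065 (SE 0.237).

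**Figure D5:**
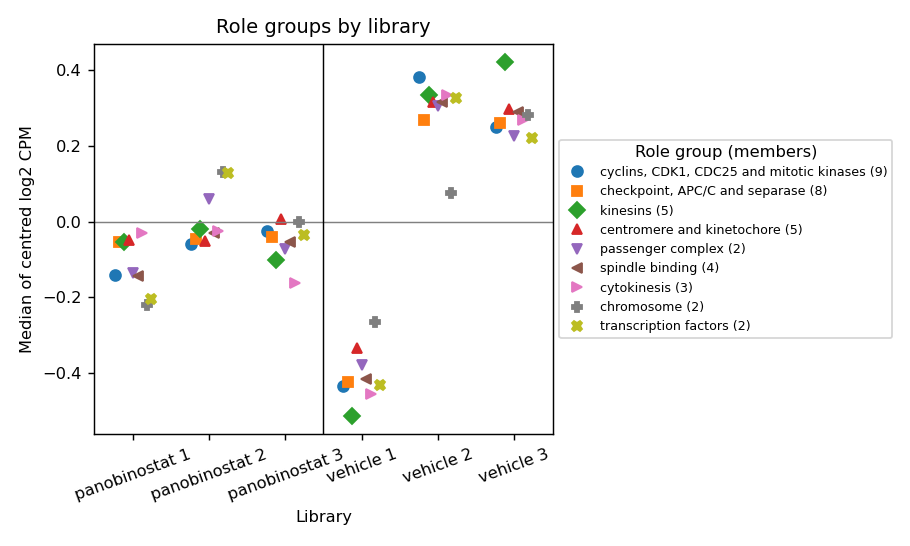
Median of centred log2 CPM over the genes of each of the 9 role groups (symbols, with the number of genes) in each library. For every role group vehicle library 1 lies lowest, and for 8 of the 9 the panobinostat libraries lie between it and vehicle libraries 2 and 3, the exception being the 2 chromosome genes Mki67 and Top2a, for which vehicle library 2 stood at 0.076.

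Levels between genes are compared per length, as mean CPM over the 6 libraries per kilobase of annotated exon. Cdc25b led with 241 CPM per kilobase and Mki67 followed with 171, then Top2a with 76.9, Ccnb2 with 73.5 and Cdc20 with 62.7. The median of the 40 was 19.7. At the low end were Cdc25c with 3.38, Cenpf with 5.87 and Ndc80 with 6.23. These lengths join all annotated exons of a gene, so a gene with long rare exons ranks low.

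Other genes of the machinery, in lists chosen with earlier results of these data known, gave 0 calls in either direction over all lists. Of 24 other kinetochore genes, 23 had a lower and 1 a higher estimate, with a median of -0.15. Ska1, of the complex that tracks microtubule ends, was lowest at -0.42 (SE 0.247), from 17.7, 19.9 and 16.8 CPM in panobinostat libraries and 15.8, 29.2 and 27.7 CPM in vehicle libraries. Cenpc1, which binds centromeric nucleosomes, was highest at 0.025 (SE 0.113). Of 19 condensin and cohesin genes, 17 had a lower estimate, with a median of -0.10. Sgo1, shugoshin, the guardian of centromeric cohesin, was lowest at -0.35 (SE 0.323), from 48.8, 47.6 and 51.8 CPM in panobinostat libraries and 33.0, 77.1 and 78.6 CPM in vehicle libraries. Pds5a, a regulator of cohesin, was highest at 0.065 (SE 0.138). Smc3, a cohesin ring subunit, had the smallest p of that list, at -0.21 (SE 0.172). Sgo1 and Ska1 both showed the common order of libraries.

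Of 30 further mitotic genes 20 had a lower estimate and the median was -0.061, from -0.28 (SE 0.241) for Cdca3, a trigger of mitotic entry, to 0.35 (SE 0.408) for Cep55, an abscission protein at 11.4, 5.12 and 6.76 CPM in panobinostat libraries and 8.94, 4.99 and 4.35 CPM in vehicle libraries. Of APC/C subunits and partners 11 of 17 had a lower estimate, with a median of -0.052, where 49.8% of all genes tested were lower. There Cdc26, an APC/C subunit, read 37.2, 35.6 and 38.6 CPM in panobinostat libraries and 39.96, 47.7 and 44.0 CPM in vehicle libraries, below every vehicle library, with a log2 fold change of -0.24 (SE 0.103) and an adjusted p of 0.998 by edgeR. Fbxo5, the APC/C inhibitor EMI1, was lowest at -0.28 (SE 0.233) and Anapc11 highest at 0.15 (SE 0.139). The medians by library of the APC/C list ran only from -0.12 in panobinostat library 1 to 0.13 in vehicle library 2 on the centred log2 scale.

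E2F, DREAM and pocket protein genes, which act at the G1 to S step and in repression of late cycle genes, had 11 of 18 lower estimates and a median of -0.033. Lin9, a MuvB subunit, was lowest at -0.45 (SE 0.263), from 23.4, 22.1 and 21.8 CPM in panobinostat libraries and 18.8, 37.8 and 35.3 CPM in vehicle libraries. Panobinostat and vehicle libraries did not overlap for E2f6 and E2f7, repressor E2F genes, which were higher in every panobinostat library, and for E2f5, named after its values were seen, which was lower. E2f7 read 36.0, 42.9 and 42.4 CPM in panobinostat libraries and 33.8, 32.3 and 33.0 CPM in vehicle libraries, with 0.29 (SE 0.106). E2f6 read 64.7, 39.5 and 38.4 CPM in panobinostat libraries and 33.9, 37.2 and 28.9 CPM in vehicle libraries, with 0.51 (SE 0.231). E2f5 read 8.09, 8.46 and 8.84 CPM in panobinostat libraries and 8.97, 11.2 and 9.34 CPM in vehicle libraries, with -0.22 (SE 0.163). By edgeR all 3 had an adjusted p of 0.998, and 7.43% of all genes tested had groups that did not overlap.

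G1 cyclins and their kinases had 5 of 8 estimates lower and a centred median in vehicle library 1 of 0.094, where the 40 mitotic genes had -0.43. Ccnd1, cyclin D1, had the lowest estimate at 2.08, 1.88 and 1.60 CPM in panobinostat libraries and 1.99, 2.75 and 2.495 CPM in vehicle libraries. Cdk6, the cyclin D kinase, had the highest at 71.8, 73.1 and 68.1 CPM in panobinostat libraries and 99.0, 23.9 and 47.3 CPM in vehicle libraries, with vehicle library 1 highest and vehicle library 2 lowest. Cdkn1a, p21, read 86.0, 238 and 324 CPM in panobinostat libraries and 428, 60.3 and 56.9 CPM in vehicle libraries. It ran opposite to the mitotic genes within the vehicle group. Within panobinostat, library 1 was lowest for Cdkn1a and also for the centred median of the 40 genes, at -0.09, -0.023 and -0.041. The log2 fold change of Cdkn1a was 0.25 (SE 0.903). It was 1.87 without vehicle library 1 (edgeR adjusted p 0.152) and 2.25 without both libraries numbered 1 (edgeR adjusted p 0.0016). Those 2 fits called 2.42% and 12% of all genes tested, and they omit the libraries that stood apart in these same counts. Outside the 40 genes, the tested genes of mean log2 CPM of at least 5 whose pattern over the 6 libraries was nearest to the median of the 40 by Pearson r were Ubac1, Abcg2, Ncaph, Rbm14 and Ccnb1-ps, each with r of at least 0.994. Ncaph, a condensin subunit, read 121, 126 and 121 CPM in panobinostat libraries and 90.6, 163 and 163 CPM in vehicle libraries, and Ubac1 75.4, 77.7 and 79.3 CPM in panobinostat libraries and 45.3, 138 and 119.9 CPM in vehicle libraries.

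Markers of other cells also differed between libraries, and their part in these results was not tested. A set of 5 megakaryocyte markers summed to 14.8, 79.8 and 111 CPM in panobinostat and 174, 7.60 and 6.47 CPM in vehicle libraries, highest in vehicle library 1, with 2 means higher and 3 lower with panobinostat and Gp1bb at 0 in some libraries. Erythroid markers, 7 in all, summed to 1422, 8733 and 11170.0 CPM in panobinostat and 11470.0, 6936 and 3871 CPM in vehicle libraries, and 6 of 7 had lower and 1 a higher mean with panobinostat. Mast cell and basophil markers summed to 1096, 426 and 408 CPM in panobinostat and 412, 343 and 385 CPM in vehicle libraries, highest in panobinostat library 1, with 7 of 7 means higher and Mcpt8 at 0 in some libraries. B cell markers summed to 4.84, 9.64 and 23.8 CPM in panobinostat and 22.7, 42.6 and 28.4 CPM in vehicle libraries and T cell markers to 2.001, 4.83 and 8.27 CPM in panobinostat and 9.32, 10.9 and 7.86 CPM in vehicle libraries, with 7 of 7 means lower in each list and Pax5 and Cd8b1 at 0 in panobinostat library 1. The sums over 7 monocyte, macrophage and granulocyte markers ran from 4.497 to 8.38 CPM with Ly6g and Elane at 0 in most libraries, and those over 4 NK cell markers from 0.319 to 11.7 CPM with Ncr1, Klrb1c and Gzma at 0 in some.

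Counts of several genes are uncertain because no source used here gives the strand setting or the handling of shared reads. Exons of 10 of the 40 genes overlap exons of a gene on the opposite strand in GENCODE M21, among them Kif20a, which shares 29.3% of its exon bases with Cdc23, Ube2c with 22.8% shared with Tnnc2, Kif4 with 15.1% shared with Pdzd11 and Prc1 with 11.1% shared with Rccd1. Cdc23 itself read 80.4, 85.6 and 77.7 CPM in panobinostat libraries and 74.0, 91.7 and 90.8 CPM in vehicle libraries, while Tnnc2 did not exceed 0.545 CPM in any library. Ccnb1 has a processed copy, Ccnb1-ps, which the table lists at 68.3, 69.0 and 71.0 CPM in panobinostat libraries and 52.6, 97.6 and 89.0 CPM in vehicle libraries, in the order of Ccnb1 itself, so reads of the 2 may have been split between them. Kif4-ps did not exceed 0.445 CPM. Ccnb2 also has an annotated copy, Ccnb2-ps, for which no counts are given here.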

How the data were processed

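Read counts per gene in 6 libraries of sorted leukaemia cells were deposited by the authors as whole numbers, without normalization. Per the submitters' processing notes, the tools named are bcl2fastq 2.17.1.14, cutadapt 2.1, FastQC 0.11.6, HISAT2 2.1.0 and featureCounts from Subread 2.0.0, on mouse build mm10. Per the labels' protocols, libraries were made from total RNA with a TruSeq RNA kit. No source used here gives the strand setting or the annotation.

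Of 27179 Entrez identifiers 25275 matched a symbol in the GRCm38.p6 RefSeq table, which also gave the coordinates. Exon lengths came from GENCODE M21 (GRCm38). Groups came from the labels. Counts were scaled with TMM factors, kept by edgeR's filterByExpr at a minimum count of 10 (13207 genes), and tested with edgeR 4.0.16 (robust quasi-likelihood, R 4.3.3) with Benjamini-Hochberg adjustment and a threshold of 0.05. SE was the size of the log2 fold change over the root of the F statistic, so the 95% intervals are approximate. CPM uses TMM-scaled library sizes, and log2 CPM a prior count of 2. A count of 0 allows up to 3 counts, or 0.0834 to 0.0947 CPM by library, for counting error only. Alternatives were DESeq2 1.42.0, limma-voom (limma 3.58.1), RLE, upper-quartile or no factors, the robust option off, a replicate block, omitted libraries, and either no filter or one at 1 CPM on average. On simulated data for the panobinostat over vehicle comparison (13008 genes, 200 changed) it made 9 false calls and recovered 47 of 100 true 2-fold changes and 76 of 100 true 4-fold changes.

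The members, the other gene lists and the markers were chosen with earlier results of these data known. Outside the 40 genes, the text names the smallest p and the lowest and highest estimate of each list, Cdkn1a and the 5 genes nearest in pattern, with markers and overlapping genes for their values beside these. A further megakaryocyte marker is not reported here.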

Additional observations from a re-analysis of the deposited data

How the results depend on the processing

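The count of called genes was 0 under edgeR's quasi-likelihood fit and moved to 9 with DESeq2, ran from 0 to 324 when each library was left out in turn, and was 1590 without both libraries numbered 1. Members of the 40 called ran from 0 to 2 over the single omissions and came to 14 without both. Estimates below 0 ran from 24 to 40 of 40 over the single omissions, with medians from -0.37 to -0.014. Scaling by library size alone turned Aurkb to -0.0063. Without both libraries numbered 1, 4 estimates turned, Cdc25b to 0.066, Aurkb to -0.097, Pttg1 to 0.10 and Cenpc1 to -0.12. Leaving out one library turned the sign of some log2 fold changes, which ran from -0.18 to 0.14 for Aurkb, -0.48 to 0.019 for Birc5, -0.35 to 0.016 for Bub1, -0.23 to 0.003 for Bub1b, -0.55 to 0.011 for Cdc20, -0.25 to 0.084 for Cdc25b and -0.45 to 0.12 for Cdc25c. Others ran from -0.17 to 0.14 for Cdk1, -0.041 to 0.98 for Cdk6, -0.17 to 1.87 for Cdkn1a, -0.43 to 0.038 for Cenpa, -0.051 to 0.085 for Cenpc1, -0.31 to 0.035 for Cenpe and -0.17 to 0.14 for Cenpf. Further ranges went from -0.035 to 0.72 for Cep55, -0.36 to 0.007 for Ect2, -0.27 to 0.021 for Espl1, -0.36 to 0.019 for Foxm1, -0.18 to 0.048 for Incenp, -0.41 to 0.0086 for Kif11 and -0.30 to 0.031 for Kif20a. Values also spanned -0.42 to 0.052 for Kif23, -0.38 to 0.011 for Kif2c, -0.13 to 0.13 for Mki67, -0.27 to 0.087 for Mybl2, -0.30 to 0.016 for Nuf2, -0.045 to 0.20 for Pds5a and -0.32 to 0.0069 for Prc1. The last ranges were -0.16 to 0.057 for Pttg1, -0.29 to 0.023 for Racgap1, -0.18 to 0.022 for Rbm14, -0.18 to 0.044 for Tpx2 and -0.44 to 0.0018 for Ube2c. The cause of these moves was not tested. RLE and upper-quartile factors, both filters, limma-voom and the fit without the robust option gave 0 calls and 39 of 40 estimates below 0, against 48.2% to 51.1% of all genes.

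Whether the column numbers pair the libraries is not stated in the labels. Deviations of libraries of the same number from their group means had r of -0.14, 0.072 and -0.20. Over all combinations of numbers r ran from -0.20 to 0.23, and with 3 libraries a group these values cannot decide it. A fit with the number as a replicate block called 0 genes and 0 of the 40, with 39 of 40 estimates below 0 and a median of -0.10. The lowest count of the 40 genes in a library was 331. With 3 libraries a group, and panobinostat library 1 and vehicle library 1 apart from the rest, changes near the size of these estimates could not be resolved.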
